A study of Mus musculus with 8 samples.

Results

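The leukocyte adhesion molecules of endothelium described here are 10 of the 23238 gene symbols listed in the count tables, of which 14071 had a count in some library: Icam1, Icam2, Vcam1, Sele, Selp, Cx3cl1, Cd34, Podxl, Cd47 and Mcam. They were picked by symbol, and their levels are given as CPM (tags scaled to a common library total). A set of 9 had at least 1 count in some library, and 8 passed the filter on low counts and were tested. Sele had no count in any library, and Selp had counts in only 2 libraries.

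Ribosome-bound RNA of lung endothelial cells was compared between 4 Sox17-deleted hypoxic and 4 control libraries from C57BL/6J mice. The Sox17-deleted hypoxic mice were Cdh5-CreERT2;Sox17fl/fl;RPL22tm1.1Psam and spent 3 weeks in hypoxia from 10 weeks of age. The control mice were Cdh5-CreERT2; RPL22tm1.1Psam and spent the same 3 weeks in room air. Animals of either group had been given 2 mg tamoxifen on 5 days at 8 weeks of age. The Cdh5 promoter restricts the inducible Cre to endothelium, and the RPL22tm1.1Psam (RiboTag) allele tags ribosomes where Cre has acted. The pulldown is thus meant to draw on cells that have carried active Cre. Deletion and oxygen differ together between the groups, and their effects cannot be told apart. Libraries were QuantSeq 3′ libraries, in which a transcript gives about 1 tag whatever its length, so levels of different genes are set side by side without dividing by length.

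Leukocytes leave the blood in steps. E-selectin (Sele) and P-selectin (Selp) catch them on the vessel wall, chemokines, among them the membrane-bound fractalkine (Cx3cl1), activate their integrins, and ICAM-1, ICAM-2 and VCAM-1 then hold them for crossing between or through endothelial cells. Inflammatory signals through NF-kappaB are known to induce Sele, Vcam1 and Icam1, whereas Icam2 is expressed by resting endothelium. CD34 and podocalyxin (Podxl) are sialomucins of the endothelial surface, CD47 signals to SIRP-alpha on myeloid cells, and MCAM (CD146) is an adhesion molecule of endothelial junctions and of pericytes.

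Totals were 7000313 to 12913304 counts in the Sox17-deleted hypoxic libraries and 10567561 to 11884614 in the control libraries, so that 3 counts, taken here as the detection floor, are 0.232 to 0.429 CPM. Genes with at least 1 count numbered 8019 to 8708 per Sox17-deleted hypoxic library, against 9821 to 10429 per control library. Sox17, the deleted gene, had 36.6, 3.28, 0.857 and 3.67 CPM in Sox17-deleted hypoxic libraries 1 to 4, against 291, 234, 209.8 and 205 CPM in control libraries 1 to 4. Sox17-deleted hypoxic library 1 thus kept more Sox17 tags than the other 3 of its group, and the members' fold changes that its omission moves by over 1.5 times, and the order of levels, are also given without it. In the deposited column names, Sox17-deleted hypoxic libraries 2, 3 and 4 share a name stem that library 1 does not carry, and no label says what the stem stands for. Endothelial markers were found in all 8 libraries, and each of 24 pan-endothelial markers had enough counts over the set to be tested. Led by Ramp2, they summed to 13893 to 24219.8 CPM in the Sox17-deleted hypoxic libraries and to 24483 to 27821 CPM in the controls. These sums were lower in the Sox17-deleted hypoxic libraries with no overlap, with 9 of the 24 genes higher and 15 lower. Single markers could be missing, as Sox18 had 0 counts in Sox17-deleted hypoxic library 3. Summed markers of some other cell types were higher in the Sox17-deleted hypoxic libraries with no overlap. Alveolar type 2 sums, led by Sftpc, were 2050.1 to 4048 CPM in the Sox17-deleted hypoxic libraries and 962 to 1285 CPM in the controls. Fibroblast sums, led by Gsn, were 793 to 9249.9 CPM in the Sox17-deleted hypoxic libraries and 606 to 786 CPM in the controls. In such pulldowns fewer cells of a type and less RNA per cell cannot be told apart. How tags of cell types other than endothelium came into the pulldown was not tested.

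No member passed the test across all genes. The edgeR quasi-likelihood test, with Benjamini-Hochberg adjustment over 8282 genes, called 0 of the 8 tested members at an adjusted p under 0.05, and it called 0 of all genes (percent called 0). The deleted gene Sox17 was not called either, at a log2 fold change of −4.39 with no overlap of the groups (edgeR adjusted p = 0.346). The absence of a call is therefore no evidence that a member was unchanged. Unadjusted, 2 members had a p under 0.05, where 424 of 8282 genes did (5.12%). These were Icam1 on the lower side, with 3.05% of genes, and Cd34 on the higher side, with 2.06% of genes. DESeq2 and limma-voom called none of the members either, with no adjusted p from DESeq2 for Cx3cl1. Of the 8 tested members 5 had a lower and 3 a higher mean fitted level in the Sox17-deleted hypoxic libraries, with a median log2 fold change of −0.23, against −0.0088 over all tested genes. In none of the 8 did the 2 groups stand fully apart, while 6.59% of tested genes did (4.96% on the lower side and 1.63% on the higher). Without Sox17-deleted hypoxic library 1, edgeR called Cx3cl1 as lower, 1 of 8 members against 5 of 9048 genes (0.0553%). In those 7 libraries Icam1 and Cx3cl1 were lower with no overlap, as were 9.43% of genes, and Cd34 was higher with no overlap, as were 4.06% of genes.

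**Figure D1:**
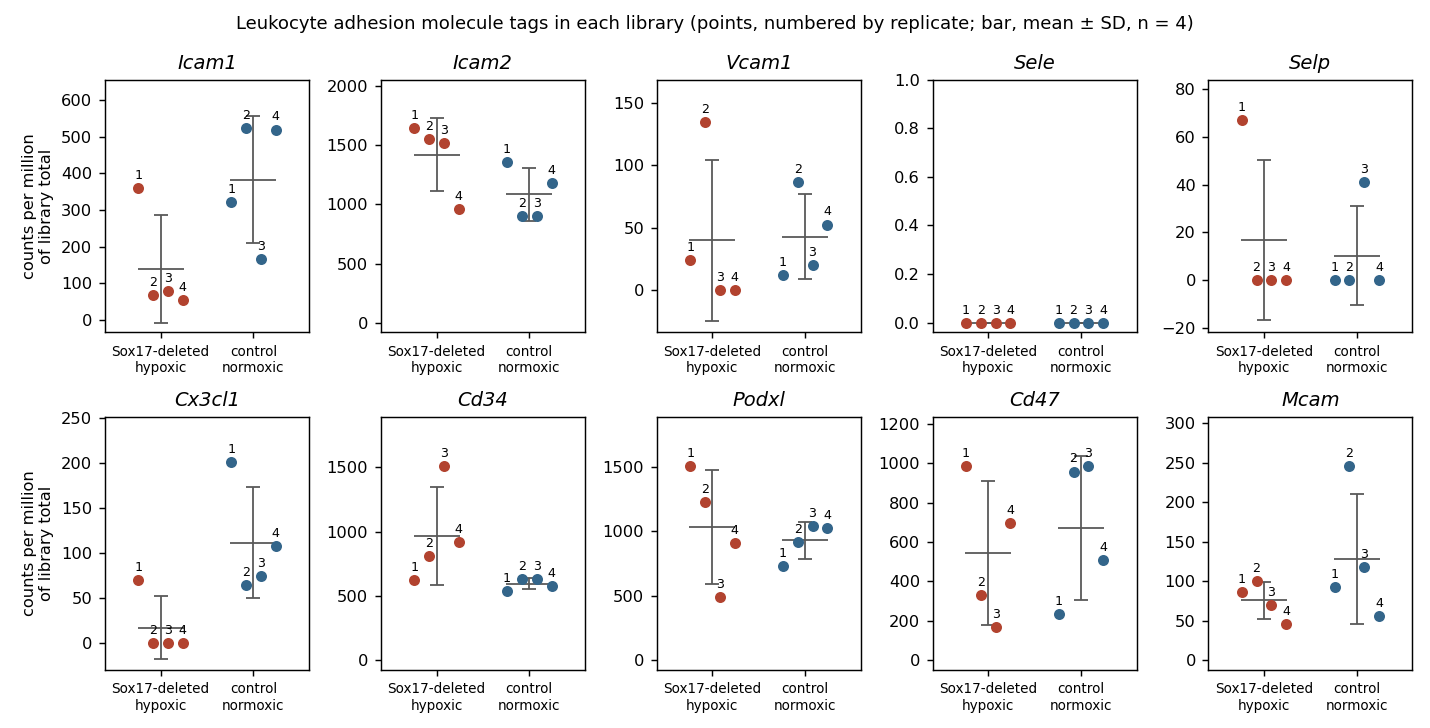
Levels of the 10 members in each library, in CPM of the library total (each panel has its own linear axis), with Sox17-deleted hypoxic libraries at left and control libraries at right. Points are libraries numbered by replicate, and bars give the mean ± SD (n = 4); Icam1 and Cx3cl1 show 3 Sox17-deleted hypoxic libraries below all controls and library 1 among or near them, while Icam2 has 3 Sox17-deleted hypoxic libraries above all controls and Podxl has some on either side of them.

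The inducible member Icam1 and the chemokine Cx3cl1 stood lowest in Sox17-deleted hypoxic libraries 2, 3 and 4. Their promoters are shown because these members lay lower in the same libraries. The promoter of Sele, the inducible member without a tag, and that of Cd34, which lay higher in those libraries, are shown for comparison. Each is the 250 bases before the RefSeq start (GRCm38.p6, plus strand, 5′ to 3′), with capitals marking matches to a kappaB-like pattern GGNNNTTCC, a SOX core ACAAT or a TATA pattern TATAAA, on either strand.
Icam1, chr9:21015690-21015939: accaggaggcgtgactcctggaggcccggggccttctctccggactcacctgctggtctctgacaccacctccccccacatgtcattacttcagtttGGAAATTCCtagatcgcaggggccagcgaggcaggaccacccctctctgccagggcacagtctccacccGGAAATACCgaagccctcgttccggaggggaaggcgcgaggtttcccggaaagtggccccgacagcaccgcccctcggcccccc
Cx3cl1, chr8:94771930-94772179: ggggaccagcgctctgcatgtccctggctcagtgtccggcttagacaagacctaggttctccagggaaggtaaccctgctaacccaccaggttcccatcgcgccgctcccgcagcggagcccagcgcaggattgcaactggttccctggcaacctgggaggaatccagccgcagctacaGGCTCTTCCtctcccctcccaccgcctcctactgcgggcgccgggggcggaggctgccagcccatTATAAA
Sele, chr1:164047984-164048233: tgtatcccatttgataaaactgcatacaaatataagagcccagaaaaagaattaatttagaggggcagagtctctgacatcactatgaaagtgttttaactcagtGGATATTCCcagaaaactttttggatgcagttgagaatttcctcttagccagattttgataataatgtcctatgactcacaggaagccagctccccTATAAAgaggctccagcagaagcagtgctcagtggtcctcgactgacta
Cd34, chr1:194938571-194938820: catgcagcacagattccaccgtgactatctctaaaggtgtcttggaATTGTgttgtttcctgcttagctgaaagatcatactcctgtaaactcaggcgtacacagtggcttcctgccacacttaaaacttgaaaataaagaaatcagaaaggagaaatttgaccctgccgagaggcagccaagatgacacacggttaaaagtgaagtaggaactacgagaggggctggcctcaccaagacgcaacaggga

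A kappaB-like match was found in 4 of the 7 member promoters that the RefSeq table holds (Icam1, Selp, Sele and Cx3cl1), against 15.6% of 27025 promoters of the same length. The SOX core was found in 1 of the 7, Cd34, against 28.3% of all promoters, and the TATA pattern in Sele and Cx3cl1, against 13% (3504 promoters). In Icam1 the stretch 153 to 145 bases before the start matches the pattern on either strand, and another match on the minus strand lies 84 to 76 bases before it. In Cx3cl1 the matches lie 71 to 63 (kappaB-like) and 6 to 1 (TATA) bases before the RefSeq start. The GENCODE start of Cx3cl1, at 94772009, lies inside the window shown and before both matches, so by GENCODE they fall within the gene. No pattern overlaps another in the sequences shown. A match of letters is a description of the sequence and no evidence of binding. Icam2, Vcam1 and Podxl were not in the promoter table.

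Icam1 encodes the immunoglobulin-like ligand of the leukocyte beta-2 integrins LFA-1 and Mac-1 (chromosome 9, 21015985 to 21028817, plus strand, GRCm38). It had 361, 67.2, 80.1 and 53.2 CPM in Sox17-deleted hypoxic libraries 1 to 4, against 321, 525, 166 and 520.1 CPM in control libraries 1 to 4. A set of 3 of the 4 Sox17-deleted hypoxic libraries lay below every control, and library 1 lay among the controls. The mean was 140.3 ± 147 CPM in the Sox17-deleted hypoxic libraries and 383 ± 173 CPM in the controls (SD, n = 4 each), and the edgeR log2 fold change was −1.43 (SE 0.63, adjusted p = 0.890). Without Sox17-deleted hypoxic library 1 the mean of that group was 66.9 ± 13.5 CPM (SD, n = 3) and the log2 fold change −2.46 (SE 0.53), with an edgeR adjusted p of 0.179. An annotated antisense gene, Gm47079, covers the 3′ end of Icam1, and the sources used here do not say whether counting used the strand.

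Icam2 encodes a shorter integrin ligand that endothelium carries without stimulation (chromosome 11, 106377656 to 106388075, minus strand), and it was the most abundant member in the mean of either group. It had 1643, 1556, 1518 and 961 CPM in Sox17-deleted hypoxic libraries 1 to 4, against 1359.7, 903, 899 and 1180.3 CPM in the controls. Libraries 1 to 3 of the Sox17-deleted hypoxic group lay above every control, and library 4 lay within the control range. The means of 1419 ± 310.1 CPM in the Sox17-deleted hypoxic libraries and 1085 ± 225 CPM in the controls gave an edgeR log2 fold change of 0.41 (SE 0.31, adjusted p = 1.00). The ICAMs thus lay on opposite sides of no difference, neither past the test. For every 100 Icam2 tags there were 22.0, 4.32, 5.28 and 5.54 Icam1 tags in the Sox17-deleted hypoxic libraries, against 23.6, 58.1, 18.5 and 44.1 in the controls. This ratio does not depend on library scaling. It was lower than in every control in Sox17-deleted hypoxic libraries 2, 3 and 4, and within the control range in library 1. The ratio was computed after the values were seen and was not tested.

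Cx3cl1 encodes fractalkine, a chemokine on a mucin stalk that binds CX3CR1 on monocytes and lymphocytes (chromosome 8, 94772009 to 94782427, plus strand). Its counts were 902, 0, 0 and 1 in Sox17-deleted hypoxic libraries 1 to 4 (69.9, 0, 0 and 0.0896 CPM), against 2119, 715, 864 and 1277 in the controls (201, 64.6, 74.2 and 107 CPM). Every control held at least 715 tags, whereas 3 Sox17-deleted hypoxic libraries were at or under the floor of 3 counts. Library 1 lay within the control range. With all 8 libraries the edgeR log2 fold change was −2.66 (SE 1.86, adjusted p = 1.00). Without Sox17-deleted hypoxic library 1 the edgeR adjusted p was 0.0388, in a fit whose fold change depends on the prior count because only 1 count remained on that side. Leaving out any 1 of the other 7 libraries gave adjusted p values of 0.956 or more.

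The same kind of loss was counted over all genes of like level. Of 2692 genes with a control mean of 50 to 200 CPM and at least 10 counts in each control, 32 (1.19%) had 0 or 1 count in 3 or more Sox17-deleted hypoxic libraries, and 582 (21.6%) in at least 1. With the groups exchanged, 2 of 2055 genes (0.0973%) had 0 or 1 count in 3 or more controls, and 64 (3.11%) in at least 1. Cx3cl1 is among the 32. The part of this uneven detection in the Cx3cl1 values was not tested.

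Vcam1 encodes the ligand of the integrin VLA-4 on lymphocytes and monocytes (chromosome 3, 116109949 to 116129688, minus strand). It had 24.2, 135, 0 and 0 CPM in the Sox17-deleted hypoxic libraries and 12.2, 86.6, 19.9 and 52.5 CPM in the controls. Sox17-deleted hypoxic library 2 was the highest of the 8 and libraries 3 and 4 had no count, so the group spanned the whole control range. The edgeR log2 fold change was −0.17 with an SE of 1.89 (adjusted p = 1.00). It ran from −2.39 to 0.45 when libraries were left out in turn, and was −0.042 without Sox17-deleted hypoxic library 1.

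Tags of the selectins were missing from most libraries. Sele (chromosome 1, 164048234 to 164057677, plus strand) had 0 counts in all 8 libraries, which allows up to 0.429 CPM in the shallowest and 0.232 CPM in the deepest, for counting error alone. Selp (chromosome 1, 164115264 to 164150026, plus strand) had 866, 0, 0 and 0 counts in the Sox17-deleted hypoxic libraries and 0, 0, 479 and 0 in the controls. A single library in each group carried all of its tags, at 67.1 CPM in Sox17-deleted hypoxic library 1 and 41.2 CPM in control library 3, and it did not pass the filter. P-selectin is made by platelets and megakaryocytes as well as by endothelium. Markers of those cells summed to 0.774 CPM in Sox17-deleted hypoxic library 1 and 30.8 CPM in control library 3, within a range of 0 to 11.3 CPM in the Sox17-deleted hypoxic libraries and 1.26 to 74.1 CPM in the controls. Of the 10 platelet markers, Gp1ba, Gp9, Treml1 and Tubb1 were at 0 in every library. The part of platelets in the Selp tags was not tested. Venous endothelial markers, the other usual company of Selp, summed to 2614 CPM in Sox17-deleted hypoxic library 1 and 1898 CPM in control library 3, the highest values of their groups. Their ranges were 1111 to 2614 CPM in the Sox17-deleted hypoxic libraries and 1449 to 1898 CPM in the controls. Lrg1 led the list, at 394 to 1687 CPM in the Sox17-deleted hypoxic and 547 to 660 CPM in the control libraries. Ackr1 was at 0 in every library, and of 7 tested venous markers 5 were higher and 2 lower. The part of venous endothelium in the Selp tags was not tested.

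Cd34 (chromosome 1, 194938819 to 194961279, plus strand) and Podxl (chromosome 6, 31519488 to 31563981, minus strand) encode heavily glycosylated sialomucins that can bind leukocytes in specialised venules and can also hold membranes apart. Cd34 had 622, 812, 1513 and 917 CPM in the Sox17-deleted hypoxic libraries and 538, 632, 628 and 578 CPM in the controls. Libraries 2 to 4 of the Sox17-deleted hypoxic group exceeded every control, and library 1 lay within the control range. The mean was 966 ± 385 CPM in the Sox17-deleted hypoxic libraries, against 594 ± 44.5 CPM in the tightly grouped controls. The edgeR log2 fold change was 0.75 (SE 0.34, adjusted p = 0.975), and 0.36 without Sox17-deleted hypoxic library 3, which held the highest value. Fibroblasts can also express Cd34, and fibroblast markers summed to 1055, 2556, 793 and 9249.9 CPM in Sox17-deleted hypoxic libraries 1 to 4. In the controls they summed to 606 to 786 CPM. Gsn, the most abundant gene of that list, alone had 469 to 8208 CPM in the Sox17-deleted hypoxic and 243 to 481 CPM in the control libraries. Of the 9 tested fibroblast markers 6 were higher and 3 lower. The part of fibroblasts in the Cd34 tags was not tested. An antisense gene, Gm16897, covers the 3′ end of Cd34 and had 4 counts over all 8 libraries.

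Podxl had 1509, 1228, 488 and 907 CPM in the Sox17-deleted hypoxic libraries and 733, 915, 1041 and 1025 CPM in the controls. The Sox17-deleted hypoxic libraries lay on either side of the controls, with libraries 1 and 2 above all of them and library 3 below all of them. The edgeR log2 fold change was 0.16 (SE 0.34, adjusted p = 1.00), and it was −0.091 without Sox17-deleted hypoxic library 1. Library 3 combined the highest Cd34 with the lowest Podxl level of the 8 libraries. Among the controls, library 1 had the lowest level of either gene.

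Cd47 (chromosome 16, 49800533 to 49915010, plus strand) encodes the widely expressed receptor of thrombospondin-1 that also restrains phagocytes and takes part in leukocyte crossing. It had 986, 329, 169 and 695 CPM in the Sox17-deleted hypoxic libraries and 233, 958, 988 and 508 CPM in the controls, a spread of several-fold within either group. The edgeR log2 fold change was −0.29 (SE 0.53, adjusted p = 1.00). It was −0.76 without Sox17-deleted hypoxic library 1 and ran up to −0.0092, without Sox17-deleted hypoxic library 3. Mcam (chromosome 9, 44134469 to 44142727, plus strand) had 86.3, 99.7, 70.1 and 46.1 CPM in the Sox17-deleted hypoxic libraries and 93.0, 246, 118 and 56.0 CPM in the controls. Control library 2 carried the highest value, the other libraries overlapped, and the edgeR log2 fold change was −0.75 (SE 0.65, adjusted p = 1.00). Without control library 2 it was −0.20. Pericytes and smooth muscle cells also express Mcam. Their markers summed to 60.4 to 608 CPM in the Sox17-deleted hypoxic libraries and 88.9 to 179 CPM in the controls, with each of the 12 detected in some library. Myh11 led the list, at 3.29 to 496 CPM in the Sox17-deleted hypoxic and 10.5 to 68.1 CPM in the control libraries. Only 6 of the 12 were tested, with 3 higher and 3 lower. The part of pericytes and smooth muscle cells in the Mcam tags was not tested.

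**Figure D2:**
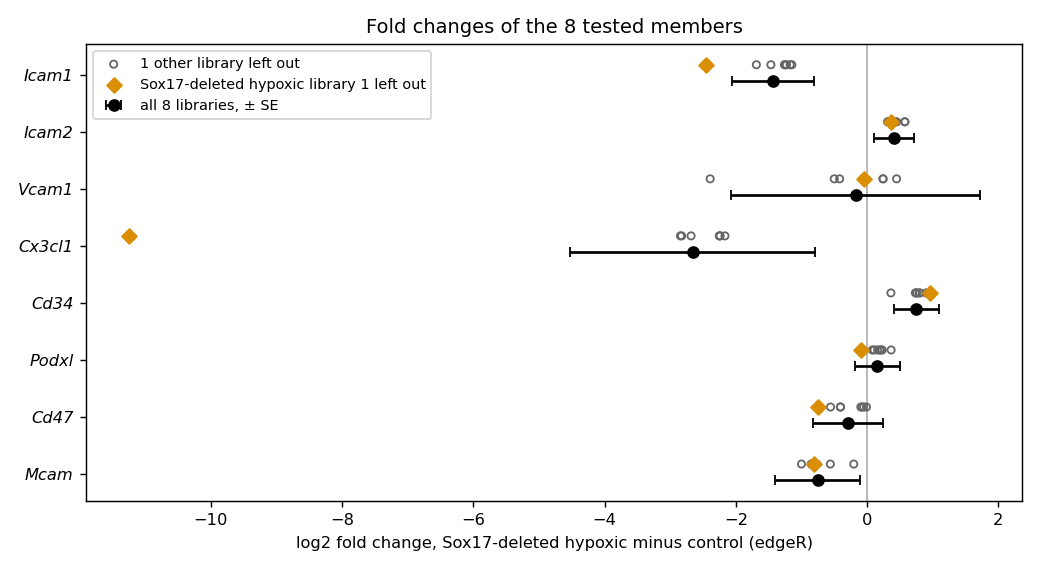
Log2 fold change (Sox17-deleted hypoxic minus control, edgeR) of the 8 tested members. Black points with bars are the fit of all 8 libraries ± SE, open circles the fits with 1 other library left out and orange diamonds the fits without Sox17-deleted hypoxic library 1, which moved Cx3cl1 to −11.2 (a value set by the prior count) and Icam1 to −2.46 and left Icam2 at 0.36.

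The order of the members by mean level was Icam2, Podxl, Cd34, Cd47, Icam1, Mcam, Vcam1, Cx3cl1, Selp and Sele in the Sox17-deleted hypoxic libraries. In the controls it was Icam2, Podxl, Cd47, Cd34, Icam1, Mcam, Cx3cl1, Vcam1, Selp and Sele. Without Sox17-deleted hypoxic library 1, the means of the other 3 put Cd34 (1081 CPM) above Podxl (874 CPM) and Mcam (72.0 CPM) above Icam1 (66.9 CPM), with Cx3cl1 at 0.0299 CPM and Selp at 0. Of neighbours in the orders over 4 libraries, only Cd34 and Icam1 in the controls had ranges that did not overlap. Among all genes Icam2 ranked 64th by mean level in the Sox17-deleted hypoxic libraries and 93rd in the controls. The members summed to 4253 ± 789 CPM in the Sox17-deleted hypoxic libraries and 3956 ± 348 CPM in the controls. Icam2, Podxl and Cd34 supplied 81.2% ± 9.23 of these tags in the Sox17-deleted hypoxic libraries and 66.4% ± 7.91 in the controls (SD, n = 4 each). These genes lead the order of the Sox17-deleted hypoxic libraries, whereas in the controls Cd47 (672 CPM) stood above Cd34 (594 CPM). A larger share in the Sox17-deleted hypoxic libraries is thus partly built into the choice, and it was not tested. The coefficient of variation of Cd34 was 39.8% in the Sox17-deleted hypoxic libraries and 7.49% in the controls, where no member varied less. That of Icam2 was 21.8% in the Sox17-deleted hypoxic libraries and 20.8% in the controls.

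**Figure D3:**
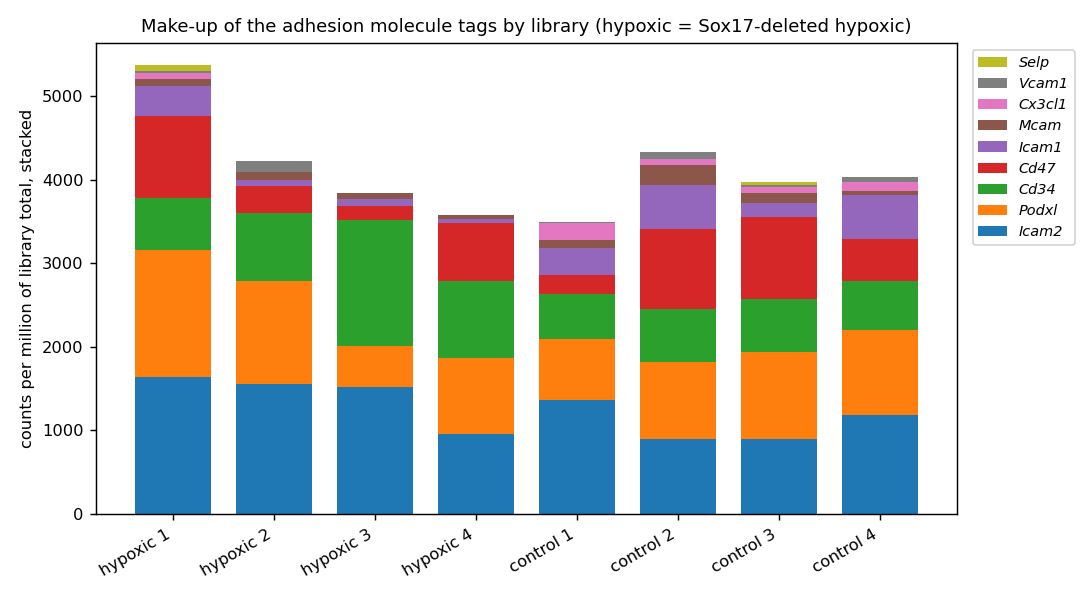
CPM of library total for the 9 detected members, stacked for each of the 4 Sox17-deleted hypoxic and 4 control libraries on a linear axis from 0. Icam2, Podxl and Cd34 make up most of every bar, the Icam1 segment is thin in Sox17-deleted hypoxic libraries 2 to 4, and Cx3cl1 is missing or invisible there.

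Scaling by pan-endothelial markers (endothelial scaling) changed the level of the comparison. Of these 24 markers 9 were higher and 15 lower, so their sum need not follow endothelial content alone. With the summed counts of pan-endothelial markers used as library size, the median log2 fold change of all genes moved by 0.46. On that scale Icam1 was at −1.17 and Cx3cl1 at −2.59, Cd34 at 1.19 and Icam2 at 0.80, with edgeR adjusted p values of 0.273 or more. Podxl was at 0.58 and Mcam at −0.38, and Cd47 and Vcam1 turned from the lower to the higher side, at 0.15 and 0.24.

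Genes that work with the adhesion molecules were followed in 8 lists, in which 81 genes were tested, and edgeR called none of them at an adjusted p under 0.05 in either direction. Their levels are means ± SD (n = 4 each). The counter-receptors on leukocytes were scarcely detected: Itgal, Itgam, Itgb2, Itga4, Selplg and Cx3cr1 all missed the filter. Of the 7 tested in that list, 5 were higher and 2 lower (median log2 fold change 0.22). Its most abundant members were the integrin subunit gene Itgb1, at 656 ± 139 CPM in Sox17-deleted hypoxic and 611 ± 93.2 CPM in control libraries, and Glg1, which encodes the E-selectin ligand ESL-1, at 478 ± 131 CPM in Sox17-deleted hypoxic and 420.3 ± 107 CPM in control libraries. Sirpa, the gene of the CD47 receptor, stood at 87.4 ± 119 CPM in Sox17-deleted hypoxic and 41.7 ± 28.2 CPM in control libraries, and the P-selectin ligand gene Cd24a at 157 ± 40.9 CPM in Sox17-deleted hypoxic and 228 ± 36.4 CPM in control libraries.

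Other endothelial surface molecules of leukocyte traffic had 9 of 16 tested genes higher and 7 lower (median 0.11). Pecam1, which guides crossing at junctions, was at 730.3 ± 403 CPM in Sox17-deleted hypoxic and 743 ± 83.1 CPM in control libraries, and the junction genes Esam and Cdh5 at 756 ± 318 CPM in Sox17-deleted hypoxic and 1000.2 ± 182 CPM in control libraries and at 523 ± 80.5 CPM in Sox17-deleted hypoxic and 755 ± 119 CPM in control libraries. Cd200, which encodes a ligand that dampens myeloid cells, was at 479.6 ± 251 CPM in Sox17-deleted hypoxic and 892 ± 139 CPM in control libraries (edgeR adjusted p = 0.889). Madcam1, Glycam1, Ackr1, Aoc3 and Stab2 had no counts in any library. Enzymes that build selectin ligand glycans had 2 of 8 higher and 6 lower (median −0.39). The sulfotransferase gene Chst1 was at 204 ± 22.8 CPM in Sox17-deleted hypoxic and 369 ± 99.1 CPM in control libraries with no overlap (edgeR adjusted p = 0.850), the sialyltransferase gene St3gal6 at 86.0 ± 54.0 CPM in Sox17-deleted hypoxic and 91.4 ± 42.0 CPM in control libraries, and Ext1, needed for heparan sulfate chains, had 1, 0, 6 and 12 counts in the Sox17-deleted hypoxic libraries against 302, 136, 262 and 646 in the controls.

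Among cytoplasmic partners of the adhesion molecule tails, 5 of 14 were higher and 9 lower (median −0.20). Radixin (Rdx) and moesin (Msn), which tie the tails of ICAMs, CD34 and podocalyxin to actin, were at 1096 ± 436 CPM in Sox17-deleted hypoxic and 995 ± 148 CPM in control libraries and at 1256 ± 497 CPM in Sox17-deleted hypoxic and 831 ± 177 CPM in control libraries. Slc9a3r2, which encodes the scaffold NHERF2 that binds podocalyxin, stood at 1439.8 ± 701 CPM in Sox17-deleted hypoxic and 1698 ± 406 CPM in control libraries, and the caveolin gene Cav1 at 551 ± 109 CPM in Sox17-deleted hypoxic and 882 ± 208 CPM in control libraries. Of 5 sheddase and inhibitor genes, 2 were higher and 3 lower (median −0.072). The metalloproteinase gene Adam15 was at 577 ± 149 CPM in Sox17-deleted hypoxic and 281 ± 89.1 CPM in control libraries, with no overlap (edgeR adjusted p = 0.536), and the inhibitor gene Timp3 at 2976 ± 1945 CPM in Sox17-deleted hypoxic and 2434 ± 518 CPM in control libraries.

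The NF-kappaB list, whose factors drive Icam1, Vcam1 and Sele, had 6 of 11 higher and 5 lower (median 0.014). Nfkbia, the inhibitor gene that NF-kappaB itself induces, was at 3198 ± 1061 CPM in Sox17-deleted hypoxic and 3165 ± 504 CPM in control libraries, Tnfrsf1a, a TNF receptor gene, at 264 ± 189.5 CPM in Sox17-deleted hypoxic and 318 ± 64.3 CPM in control libraries, and Nfkb2 at 91.6 ± 62.3 CPM in Sox17-deleted hypoxic and 33.5 ± 51.1 CPM in control libraries. The kinase gene Chuk had 0, 0, 1 and 0 counts in the Sox17-deleted hypoxic libraries and 46, 17, 344 and 222 in the controls (edgeR adjusted p = 0.427). Of 17 tested transcription factors in the next list, 6 were higher and 11 lower, among the latter the deleted gene Sox17 (median −0.19). Klf2, a flow-induced factor that opposes adhesion molecule induction, was at 1505 ± 847 CPM in Sox17-deleted hypoxic and 2620.1 ± 218 CPM in control libraries, and Klf4 at 1694 ± 903 CPM in Sox17-deleted hypoxic and 1957 ± 248 CPM in control libraries. Foxf1, a transcription factor of lung endothelium, was at 259 ± 60.1 CPM in Sox17-deleted hypoxic and 481 ± 107 CPM in control libraries with no overlap (edgeR adjusted p = 0.785). Of 3 tested chemokines, Cxcl12 stood at 1689 ± 254 CPM in Sox17-deleted hypoxic and 350.3 ± 127 CPM in control libraries (edgeR adjusted p = 0.0698, and 0.0388 without Sox17-deleted hypoxic library 1) and Ccl21a, which has near-identical copies and so uncertain counts, at 745 ± 397 CPM in Sox17-deleted hypoxic and 336 ± 46.3 CPM in control libraries. These values stand beside higher summed markers of alveolar type 2, club and ciliated cells and fibroblasts, and lower pan-endothelial and general capillary sums. They also stand beside fewer detected genes in the same libraries. The part of each in them was not tested. Endothelial scaling, which moved the median of all genes by 0.46, also moved the partner genes. It took the log2 fold change of Foxf1 from −0.87 to −0.40 and that of Klf2 from −0.80 to −0.34. Cd200 went from −0.90 to −0.47, Chst1 from −0.84 to −0.40 and Cav1 from −0.65 to −0.22. On the higher side, Adam15 went from 1.05 to 1.44 and Msn from 0.65 to 1.09.

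**Figure D4:**
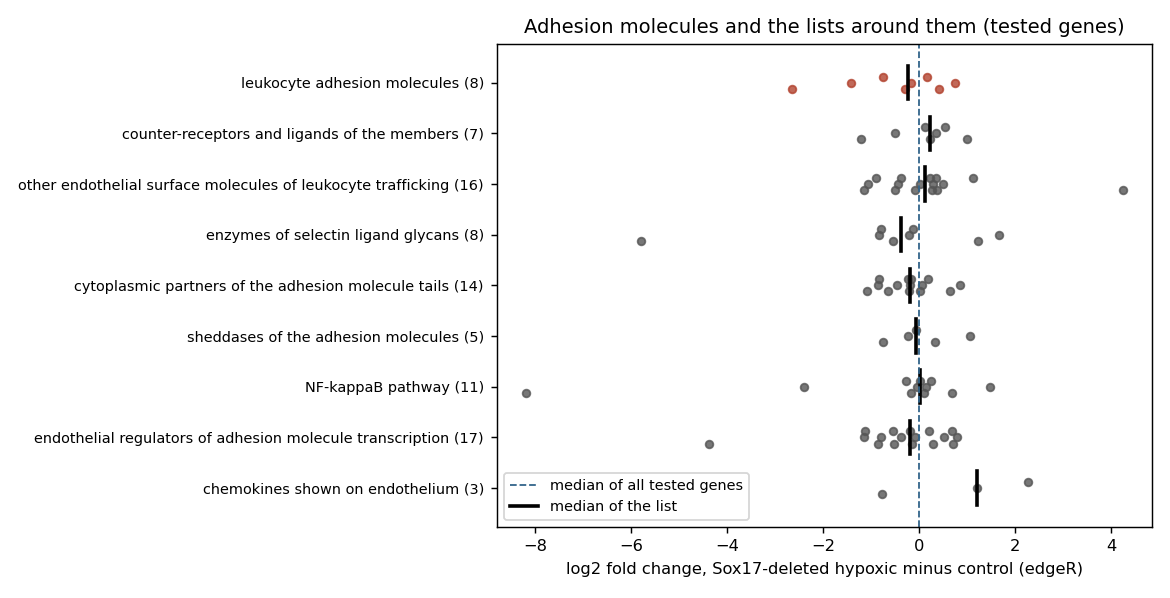
Log2 fold changes (Sox17-deleted hypoxic minus control, edgeR) of the tested adhesion molecules (top, red) and of the tested genes in the 8 lists around them (grey), with the number tested in brackets. Thick ticks are list medians and the dashed line the median of all tested genes at −0.0088; the medians lie within 0.39 of 0 except for the 3 chemokines at 1.20.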

How the data were processed

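The authors deposited raw counts as whole numbers, with a table of gene symbols for each library. Per the labels' protocols these were QuantSeq 3′ libraries of RNA bound to HA-tagged ribosomes. Bowtie2, bedtools and the mm10 build are listed in the submitters' processing notes, without versions, settings or strand. Rows sharing a symbol (44) were summed. CPM use library totals. EdgeR 4.0.16 in R 4.3.3 (filterByExpr, TMM factors, quasi-likelihood F test, group as only term) was fitted to the whole table, and the SE is the log2 fold change over the square root of F. The fitting code was tested on simulated data. Members and lists were chosen with earlier results of these data known. Named genes are the members, Sox17, and the 2 most abundant and 2 lowest-p tested genes of each partner list. For most marker lists the most abundant gene is named. Alternatives, 20 in all, covered scaling, filters, DESeq2 1.42.0, limma 3.58.1, a replicate block and leaving out each library. Every pair of libraries differed beyond sampling noise (chi-square per degree of freedom 188 or more). The value was 188 to 231 for pairs of controls and 401 to 532 for pairs of Sox17-deleted hypoxic libraries. For pairs across the groups it was 325 to 437. By this measure the Sox17-deleted hypoxic libraries were no closer to each other than to the controls. The labels do not say which libraries are separate animals, so the p-values reflect differences among these libraries that may be technical. Floors cover counting error only. Positions are from GENCODE M21 (GRCm38, mm10).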

Additional observations from a re-analysis of the deposited data

Results flagged for a closer look

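In sets of 4 libraries, the gap of a library to the nearest other was taken as a share of the whole range. A library was picked out when that share exceeded Dixon's critical value for 4. Chance does this in about 1 of 20 sets of normally distributed values. CPM with zeros are not such values, and a set with counts in only 1 library is always picked out, as for Selp and Chuk. In all, 72 sets were looked at and 9 libraries were picked out, a number not to be read against that rate. Sox17-deleted hypoxic library 1 stood high for Icam1 (361 CPM, next highest 80.1), Selp (67.1 CPM, next 0), Cx3cl1 (69.9 CPM, next 0.0896) and Sox17 (36.6 CPM, next 3.67). For Icam1 and Cx3cl1 its value lay within the control range, and for Sox17 below it. The same library had the highest pan-endothelial sum of its group (24219.8 CPM). Control library 3 stood high for Selp (41.2 CPM, next 0). Among the named partner genes, control library 2 stood high for Chst1 (517 CPM, next 325), control library 1 for Nfkb2 (109.8 CPM, next 12.5) and control library 4 low for Klf4 (1586 CPM, next lowest 2054 CPM). Sox17-deleted hypoxic library 3 was picked out for Chuk at 0.143 CPM, which is 1 count against 0 in the other 3.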

How the results depend on the processing

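Over 20 alternatives, Icam1, Cx3cl1 and Mcam stayed on the lower side and Icam2 and Cd34 on the higher side in every fit that gave a value (Cx3cl1, Mcam and Vcam1 gave none under a higher minimum mean level). The members called numbered 0 under each alternative except without Sox17-deleted hypoxic library 1, so leaving out a library gave 0 to 1; that 1 was Cx3cl1. Of 157 member values under alternatives, 150 kept direction and side of the threshold, and of 534 for the named partner genes, 484 did. Over all genes, 0 were called with all libraries by edgeR, 2 with endothelial scaling, 17 with no filter, 4 with the higher minimum level, 473 and 155 by DESeq2 with its own and with edgeR's filter, 44 and 14 by limma-voom without and with quality weights, 1 by robust edgeR and 0 to 5 when a library was left out. Partner genes called were 1, 2, 1, 9, 4, 1, 1 and 1 under the same settings in that order, and 0 to 2 when a library was left out. Those called with no filter and in both DESeq2 fits included the deleted gene Sox17. Cxcl12 was among the partner genes called under each of those 8 settings, and among the fits that left out a library it was called only without Sox17-deleted hypoxic library 1, with adjusted p from 1.53e-10 to 0.676 over its 20 alternatives. The cause was not tested. Upper-quartile scaling put Pecam1 at −0.073 and Nfkbia at −0.058, library totals put Pecam1 at −0.024, and the higher minimum level put it at −0.027. Endothelial scaling put Vcam1 at 0.24, Cd47 at 0.15, St3gal6 at 0.39, Slc9a3r2 at 0.12, Tnfrsf1a at 0.14 and Klf4 at 0.21 (all log2). Limma-voom put Sirpa at −0.10, Pecam1 at −0.14 and St3gal6 at 0.00025, and with quality weights Pecam1 at −0.19 and St3gal6 at 0.031. Limma-voom put Cx3cl1 at −7.77 (adjusted p = 0.0908) and Vcam1 at −4.11. Both forms of limma-voom also moved the median of all genes, by −0.70 and −0.69. Leaving out libraries gave log2 ranges of −2.39 to 0.45 for Vcam1, −0.091 to 0.37 for Podxl, −0.49 to 1.55 for Sirpa, −0.36 to 0.30 for Pecam1, −0.43 to 0.23 for St3gal6, −0.52 to 0.079 for Slc9a3r2, −0.020 to 0.42 for Rdx, −0.19 to 0.56 for Timp3, −0.075 to 0.20 for Nfkbia, −0.78 to 0.10 for Tnfrsf1a and −0.61 to 0.14 for Klf4.

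Replicate numbers showed no pairing of the libraries, which does not exclude one: same-numbered libraries deviated together with r of −0.0199 to 0.0214. With a replicate block edgeR called 0 genes and 0 members, and it put Icam1 at −1.78, Cx3cl1 at −9.28 (adjusted p = 0.764), Vcam1 at −3.95, Sirpa at −0.0023, Pecam1 at −0.18 and Nfkbia at −0.025. The block also moved the median of all genes, by −0.56.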

Other observations

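Further markers of the libraries' cell content are given as summed CPM, with no test. General capillary markers, led by Cd93, were lower without overlap, at 3503 to 8501 CPM in the Sox17-deleted hypoxic libraries and 9673 to 12091 CPM in the controls. Club and ciliated cell markers, led by Scgb1a1, were higher without overlap (5263 to 8597 CPM in Sox17-deleted hypoxic and 2567 to 3457 CPM in control libraries), as were macrophage and monocyte markers, led by Ly6c2, with Adgre1 at 0 (269.99 to 464 CPM in Sox17-deleted hypoxic and 159 to 250.5 CPM in control libraries). The arterial sum was 2105.76 to 3470.3 CPM in the Sox17-deleted hypoxic libraries and 1665 to 2106.08 CPM in the controls, so the groups just overlapped. Of the 8 tested arterial genes 2 were higher and 6 lower. Cxcl12, which led the sum, alone had 1329 to 1890 CPM in the Sox17-deleted hypoxic and 263 to 535 CPM in the control libraries. The sums overlapped for aerocytes (1983 to 5734 CPM in Sox17-deleted hypoxic and 4087 to 5128 CPM in control libraries, led by Kdr), lymphatic endothelium (1305 to 3273 CPM in Sox17-deleted hypoxic and 1633 to 2204 CPM in control libraries, led by Lyve1), alveolar type 1 cells (1796 to 2105 CPM in Sox17-deleted hypoxic and 1918 to 2730.4 CPM in control libraries, led by Cav1) and neutrophils (39.2 to 413 CPM in Sox17-deleted hypoxic and 51.5 to 124 CPM in control libraries, led by S100a9). They also overlapped for mesothelium (31.3 to 175 CPM in Sox17-deleted hypoxic and 17.1 to 37.7 CPM in control libraries, led by Rarres2), T and NK cells (0 to 72.1 CPM in Sox17-deleted hypoxic and 0.0859 to 28.8 CPM in control libraries, led by Gzma), B cells (0 to 0.269 CPM in Sox17-deleted hypoxic and 0 to 30.1 CPM in control libraries, led by Cd79b) and erythroid cells (222 to 2839 CPM in Sox17-deleted hypoxic and 1325 to 2434 CPM in control libraries, led by Hba-a1).

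Among partner genes outside the naming rule, and picked after their values were seen, 3 more had groups that did not overlap in CPM, which makes 10 of the 81 tested partner genes (7 lower and 3 higher), where 6.59% of all tested genes did not overlap (4.96% lower and 1.63% higher). Sox17 is among the 7 lower, where the deletion itself puts it, and the lists were chosen with earlier results known. The count is thus a description and was not tested. Erg, an endothelial ETS factor, had 2146, 1905, 537 and 34 counts in the Sox17-deleted hypoxic libraries and 2232, 2259, 3386 and 3409 counts in the controls. Rac1, a small GTPase of the actin cytoskeleton, averaged 323 ± 195 CPM in the Sox17-deleted hypoxic and 602 ± 39.3 CPM in the control libraries (SD, n = 4 each). B4galt1, a galactosyltransferase gene, averaged 119.6 ± 35.5 CPM in the Sox17-deleted hypoxic and 38.4 ± 13.2 CPM in the control libraries. EdgeR called none of the 3 (adjusted p = 0.863 for B4galt1 and 1.00 for the other pair).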
